A study of Homo sapiens with 2 samples.

Results

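The genes described here encode surface and secreted ligands with which a tumour cell engages the checkpoint receptors of T cells and phagocytes and the receptors of natural killer (NK) cells. They were chosen by gene symbol from a list of 9 genes, CD276, LGALS9, PVR, NECTIN2, CD47, CD58, MICA, MICB and ULBP2, and 8 of them were listed among the 12075 protein-coding genes of the deposited expression table. The expression of MICB was not analysed here. Expression had been measured by RNA-seq in LNCaP, a human prostate cancer line that responds to androgen and was grown from a lymph node metastasis, labelled wild type, in 2 libraries with 1 library per group. The nc library came from LNCaP treated with CM of nc-YY1 M2 macrophages, and the oe library from LNCaP given CM of their oe-YY1 counterparts. The labels spell out neither nc, oe nor CM, and they attach YY1, a zinc finger transcription factor, to the macrophages and not to LNCaP. Their treatment field also says cocultured, so whether macrophage RNA could be in the libraries is not settled by the labels. Values of the 2 libraries are given as nc and oe. Both samples are labelled day 0, and their treatment protocol text, on adipogenic induction with insulin, was not used to define a group. The study's title places YY1 in tumour-associated macrophages and names IL-6 as what it raises.

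As background, T cells and NK cells weigh activating against inhibitory contacts. MICA, MICB and ULBP2 are stress-induced proteins bound by the activating receptor NKG2D. PVR and NECTIN2 are adhesion proteins that are shared by the activating receptor CD226 and the inhibitory receptor TIGIT, so either can push a lymphocyte both ways. CD276, of the B7 family, is known chiefly as an inhibitor of T cells and is abundant in many prostate tumours. LGALS9, a secreted galectin, is a ligand of the inhibitory receptor TIM-3, CD47 restrains phagocytes through SIRPA, and CD58 binds CD2 and supports adhesion and costimulation of T cells and NK cells.

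Across the ligand set, CD276 and LGALS9 were at least 2-fold higher in the oe library, PVR was at least 2-fold lower, and CD58 lay just under the 2-fold mark. The other 4 genes, MICA, ULBP2, NECTIN2 and CD47, were nearly level. In bulk RNA, a different share of cells of a kind and a different amount of RNA per cell cannot be told apart. Values are in FPKM (fragments scaled by transcript length and library size), so levels of different genes can be set side by side. A log2 ratio is the oe minus nc difference of log2(FPKM + 1), which shrinks differences between low values, and 2-fold means a log2 ratio of at least 1 or at most -1. With 1 library per group, no difference below has a replicate check, a p-value or an interval, the number of reads behind each value is unknown, and no pair of neighbouring levels can be said to differ beyond its spread.

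Of the 8 listed ligand genes, all 8 reached 1 FPKM in the higher library and were counted, 2 as higher, 1 as lower and 5 as under 2-fold. Over all 11126 genes counted in the same way, 6.46% were higher by 2-fold or more and 5.83% lower by 2-fold or more. Among the 7137 genes whose higher value lay in the range of the ligand genes, from 1.27 to 13.005 FPKM, these shares were 6.07% and 4.75%. With 8 genes, each gene is a larger part of its set than either share, so the counts say nothing particular about the set. The median log2 ratio of the 8 genes was 0.08, against -0.01 over all genes counted. LGALS9 was listed at 0 in nc, so on reaching the minimum in oe it had to be counted as higher, and the 7 genes at 1 FPKM in both libraries had a median of 0.06, against -0.03 over the 10080 genes that met that filter.

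**Figure D1:**
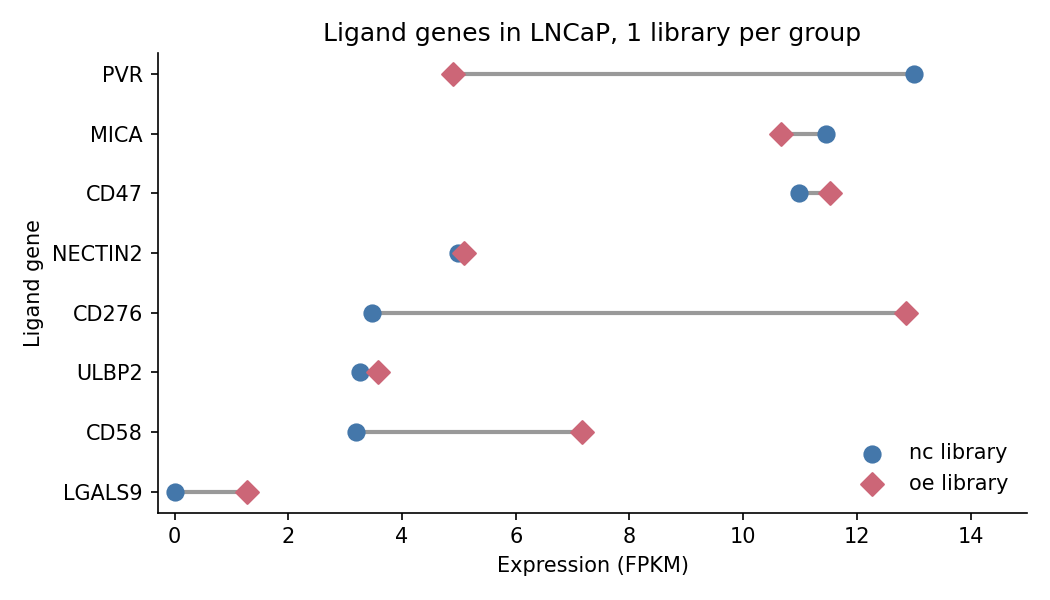
Expression of the 8 listed ligand genes in FPKM (horizontal axis) in the nc library (blue circles) and the oe library (red diamonds), 1 library each, joined by a grey line per gene. PVR runs from 13.0 down to 4.90 FPKM and CD276 from 3.47 up to 12.9 FPKM, while MICA, CD47, NECTIN2 and ULBP2 nearly coincide.

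The order of the ligands changed at its top. In the nc library the order from highest to lowest FPKM was PVR, MICA, CD47, NECTIN2, CD276, ULBP2, CD58 and LGALS9. In the oe library it was CD276, CD47, MICA, CD58, NECTIN2, PVR, ULBP2 and LGALS9. PVR passed from first to sixth place and CD276 to first place from behind NECTIN2. The sum over the 8 genes was 50.3 FPKM in nc and 57.1 FPKM in oe.

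Among the B7 family, CD276 (ENSG00000103855.17_2, chromosome 15, 73976307 to 74006859, plus strand) stood at 3.47 FPKM in nc and 12.9 FPKM in oe. In oe it stood highest of the ligand genes, ahead of CD47 with 11.5 FPKM. The ratio of plain FPKM was 3.71, and the log2 ratio was 1.63, rank 298 from the top of 11126. In the nc library 37.6% of listed genes lay below CD276, and in the oe library 74.7%. The genes whose levels in both libraries were closest to those of CD276 were PARP9 (3.87 FPKM in nc, 13.3 FPKM in oe) and NIPAL2 (3.77 and 14.05 FPKM, nc first). Their distances from CD276 in the plane of the 2 log2 levels were 0.13 and 0.15, and no gene lay within 0.1.

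PVR, also called CD155 or the poliovirus receptor (ENSG00000073008.14_3, chromosome 19, 45147098 to 45166850, plus strand), stood at 13.005 FPKM in nc and 4.90 FPKM in oe. The nc value was thus 2.66 times the oe value in plain FPKM, and the log2 ratio was -1.25, rank 401 from the bottom of 11126. In the nc library 74.1% of listed genes lay below PVR, and in the oe library 45.8%. The closest genes by level were G6PC3 (13.3 FPKM in nc, 4.82 FPKM in oe) and S1PR3 (12.7 FPKM in nc, 4.87 FPKM in oe). The last 1306 bases of the listed span of PVR overlap CEACAM19 on the same strand, which measured 0.477 FPKM in nc and 2.02 FPKM in oe, so part of the reads there could be counted for either gene.

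NECTIN2 (ENSG00000130202.9_3, chromosome 19, 45349432 to 45392485, plus strand), the other ligand shared by TIGIT and CD226, stood at 4.99 FPKM in nc and 5.08 FPKM in oe, a log2 ratio of 0.02. PVR and NECTIN2 therefore differed in balance between the libraries. PVR stood at 2.61 times the level of NECTIN2 in nc and at 0.964 times in oe. CD276 stood at 0.267 times the level of PVR in nc and at 2.63 times in oe. Such ratios within a library do not depend on how the libraries are scaled to each other.

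LGALS9 (ENSG00000168961.16_4, chromosome 17, 25956824 to 25976586, plus strand) was listed at 0 in nc and measured 1.27 FPKM in oe, and for a gene listed at 0 no fold is given. Even in oe only 14.5% of listed genes lay below it, so it was the lowest ligand gene in both libraries. The longest LGALS9 transcript in GENCODE 29 matches LGALS9C at 95.8% identity over 55.5% of its length, and reads may be divided between such copies. LGALS9B and LGALS9C were not analysed here. The closest genes by level were ICAM4, at 0 and 1.30 FPKM, and BIVM-ERCC5 (0.00664 FPKM in nc, 1.30 FPKM in oe).

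CD58 (ENSG00000116815.15_4, chromosome 1, 117057157 to 117113661, minus strand) stood at 3.19 FPKM in nc and 7.17 FPKM in oe. It was thus past 2-fold in plain FPKM, with a ratio of 2.25, but not on the scale of FPKM + 1, where the log2 ratio was 0.96. It passed 2-fold with a pseudocount of 0.1 (log2 ratio 1.15) or 0.5 (1.06). Its rank was 765 from the top of 11126.

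CD47 (ENSG00000196776.14_2, chromosome 3, 107762145 to 107809872, minus strand) stood at 10.98 FPKM in nc and 11.5 FPKM in oe, a log2 ratio of 0.06. It was the ligand gene with the highest mean level on the log scale. The closest genes by level were WDR89 (11.01 FPKM in nc, 11.5 FPKM in oe) and AKAP8 (10.97 FPKM in nc, 11.6 FPKM in oe), and 60 genes lay within 0.1 of CD47 in the plane of the log2 levels. Relative to CD47, CD276 stood at 0.316 in nc and 1.12 in oe, and CD58 at 0.290 and 0.622.

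The NKG2D ligands in the set were nearly level. MICA (ENSG00000204520.12_3, chromosome 6, 31367561 to 31383092, plus strand) stood at 11.5 FPKM in nc and 10.7 FPKM in oe, a log2 ratio of -0.09 that turned to 0.02 once both libraries had the same sum. ULBP2 (ENSG00000131015.4_2, chromosome 6, 150263136 to 150270371, plus strand) measured 3.26 FPKM in nc and 3.57 FPKM in oe, a log2 ratio of 0.10. MICA was at 3.52 times the level of ULBP2 in nc and 2.99 times in oe. Each has a close copy with which reads may be divided. The longest MICA transcript matches MICB at 91.1% identity over 60.6% of its length, and that of ULBP2 matches RAET1L, a further NKG2D ligand, at 95.3% identity over 94.6%. RAET1L stood at 0.0979 FPKM in nc and 2.03 FPKM in oe. ULBP2 and RAET1L summed to 3.35 and 5.60 FPKM, a log2 ratio of 0.60.

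**Figure D2:**
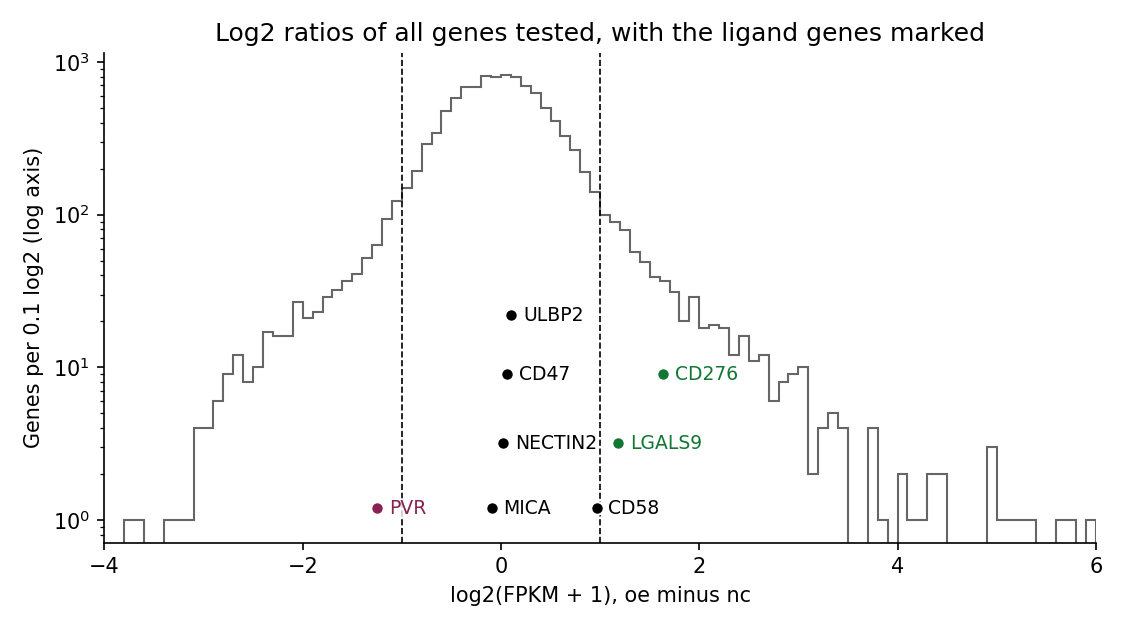
Log2 ratios, oe minus nc, of the 11126 genes counted (grey outline, genes per 0.1 log2 on a log axis), with the 8 ligand genes as points placed at arbitrary heights and dashed lines at 2-fold. The axis ends at 6 and leaves out 11 genes with higher ratios. CD276 (1.63) and LGALS9 (green) lie right of the upper line, PVR (-1.25, purple) left of the lower line, and CD58 (0.96) next to the upper line, while LGALS9 is placed by the pseudocount because it was listed at 0 in the nc library.

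The 300-base promoter windows of the genes past 2-fold, and of MICA and its copy MICB, are shown because the former differed in opposite directions and the latter share most of their sequence. They are from RefSeq on GRCh38.p14, run 5′ to 3′ on the strand of the gene from 250 bases before to 50 bases after an annotated start, and matched all 9 genes by symbol, with a pair of windows for CD276. Capitals mark matches, on either strand, to the consensus of NF-kappaB, the STAT site TTCNNNGAA, the interferon regulatory factor core AANNGAAA, the heat shock element core GAANNTTC or the TATA box TATAAA. The windows lie at chr15:73684520-73684819 for CD276 (the second of its pair), chr19:44643660-44643959 for PVR, chr17:27630938-27631237 for LGALS9, chr6:31403345-31403644 for MICA and chr6:31497895-31498194 for MICB, each on the plus strand.
CD276: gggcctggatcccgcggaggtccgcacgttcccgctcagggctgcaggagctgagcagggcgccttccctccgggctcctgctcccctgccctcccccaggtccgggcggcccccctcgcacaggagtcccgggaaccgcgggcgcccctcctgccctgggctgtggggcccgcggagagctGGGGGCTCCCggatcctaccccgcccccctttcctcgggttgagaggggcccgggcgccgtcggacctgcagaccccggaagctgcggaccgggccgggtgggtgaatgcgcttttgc
PVR: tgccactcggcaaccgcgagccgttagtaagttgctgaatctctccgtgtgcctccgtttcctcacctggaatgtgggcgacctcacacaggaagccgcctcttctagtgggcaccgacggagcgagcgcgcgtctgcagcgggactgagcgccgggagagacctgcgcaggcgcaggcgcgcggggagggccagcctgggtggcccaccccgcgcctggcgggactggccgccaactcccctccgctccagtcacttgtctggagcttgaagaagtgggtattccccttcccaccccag
LGALS9: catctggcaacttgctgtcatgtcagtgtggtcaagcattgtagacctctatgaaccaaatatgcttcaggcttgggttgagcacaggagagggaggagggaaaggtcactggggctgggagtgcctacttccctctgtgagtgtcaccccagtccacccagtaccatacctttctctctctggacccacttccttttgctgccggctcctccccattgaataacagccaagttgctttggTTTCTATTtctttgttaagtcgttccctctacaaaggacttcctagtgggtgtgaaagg
MICA: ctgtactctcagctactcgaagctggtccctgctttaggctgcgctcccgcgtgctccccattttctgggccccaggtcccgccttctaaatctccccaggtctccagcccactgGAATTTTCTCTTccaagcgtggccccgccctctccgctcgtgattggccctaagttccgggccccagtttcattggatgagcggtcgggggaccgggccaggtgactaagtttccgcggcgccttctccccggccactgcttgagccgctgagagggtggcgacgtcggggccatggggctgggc
MICB: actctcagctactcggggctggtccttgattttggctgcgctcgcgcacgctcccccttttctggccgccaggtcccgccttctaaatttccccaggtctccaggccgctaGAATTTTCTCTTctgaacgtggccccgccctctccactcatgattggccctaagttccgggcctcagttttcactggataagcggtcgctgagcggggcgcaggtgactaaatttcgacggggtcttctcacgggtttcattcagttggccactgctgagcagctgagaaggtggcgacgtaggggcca

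The capitals in the CD276 window are a match to the NF-kappaB consensus, which 11.3% of 35116 windows of this length hold. This is the only such match in the 10 windows of the 9 genes, and of the CD276 pair only the window with it is printed. The printed window also holds 2 copies of the GC box GGGCGG, a letter run found in 44.95% of all windows. The other CD276 window, at chr15:73684133-73684432, holds no capital and 7 copies of the GC box. The PVR window holds none of these motifs, GC box included. The capitals in the LGALS9 window are an interferon regulatory factor core, present in 22.8% of all windows. That window holds no GC box either. MICA and MICB each hold a heat shock element core (6.77% of all windows) whose last bases overlap an interferon regulatory factor core, and the aligned parts of their windows are 86.6% identical over 284 positions. No window of the 9 genes holds the STAT site, which 7.66% of all windows do, or the TATA box, at 11.5%. A match describes letters only, and its absence says only that the letters are not in that window.

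Related ligands were read from gene lists of the same pathways. Over 8 lists of ligands, 31 genes outside the set were counted, of which 11 were at least 2-fold higher in the oe library, 1 was at least 2-fold lower and 19 were under 2-fold. The 11 genes are 35.5% of the 31, beside 6.46% of all genes counted. Of the 11, 5 stood under 1 FPKM in the nc library and passed the minimum through oe alone, so they could not be counted as lower. The median log2 ratio of the 31 genes was 0.59, against -0.01 over all genes counted. The lists were chosen with earlier results of these data known, so they are no independent evidence of a direction.

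In the B7 and butyrophilin list of 17 genes, 9 were counted, 4 were higher, CD276 among them, and 0 were lower, with a median log2 ratio of 0.94. The butyrophilins BTN3A3 and BTN2A2, relatives of the B7 proteins, were among the higher genes. BTN3A3 measured 1.14 FPKM in nc and 4.68 FPKM in oe, and BTN2A2 measured 1.69 FPKM in nc and 5.05 FPKM in oe. BTN2A1, the most abundant of the list by its mean over both libraries, measured 6.89 FPKM in nc and 10.8 FPKM in oe. Reads may be divided between butyrophilins, which are close relatives of each other. CD276 had the highest log2 ratio of that list on the scale of FPKM + 1. In plain FPKM its ratio of 3.71 lay below those of BTN3A3 (4.09) and BTN3A1 (3.84). BTN3A1, also among the higher genes, measured 0.658 FPKM in nc and 2.53 FPKM in oe. CD274 and PDCD1LG2, the ligands of PD-1, and CD80 and CD86 were not analysed here.

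In the list of 7 nectins and nectin-like genes, 5 were counted, with 1 higher and 1 lower and a median log2 ratio of -0.08. The lower gene was PVR. The higher gene was NECTIN4, the surface protein targeted by an antibody-drug conjugate in urothelial cancer, which stood at 7.001 FPKM in nc and 16.7 FPKM in oe. NECTIN1 (7.11 FPKM in nc, 4.11 FPKM in oe) was lower by less than 2-fold. The family held genes on both sides, with PVR as the highest in the nc library and NECTIN4 as the highest in the oe library.

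The list of TIM-3 and LAG-3 ligands held 7 genes, of which 4 were counted, 2 higher and 1 lower. LGALS9 was 1 of the higher genes. The other was FGL1, a secreted ligand of LAG-3, at 0.0356 FPKM in nc and 3.92 FPKM in oe. HMGB1, a chromatin protein that also binds TIM-3, was the lower gene (62.8 FPKM in nc, 28.1 FPKM in oe). Both higher genes stood under 1 FPKM in the nc library.

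**Figure D3:**
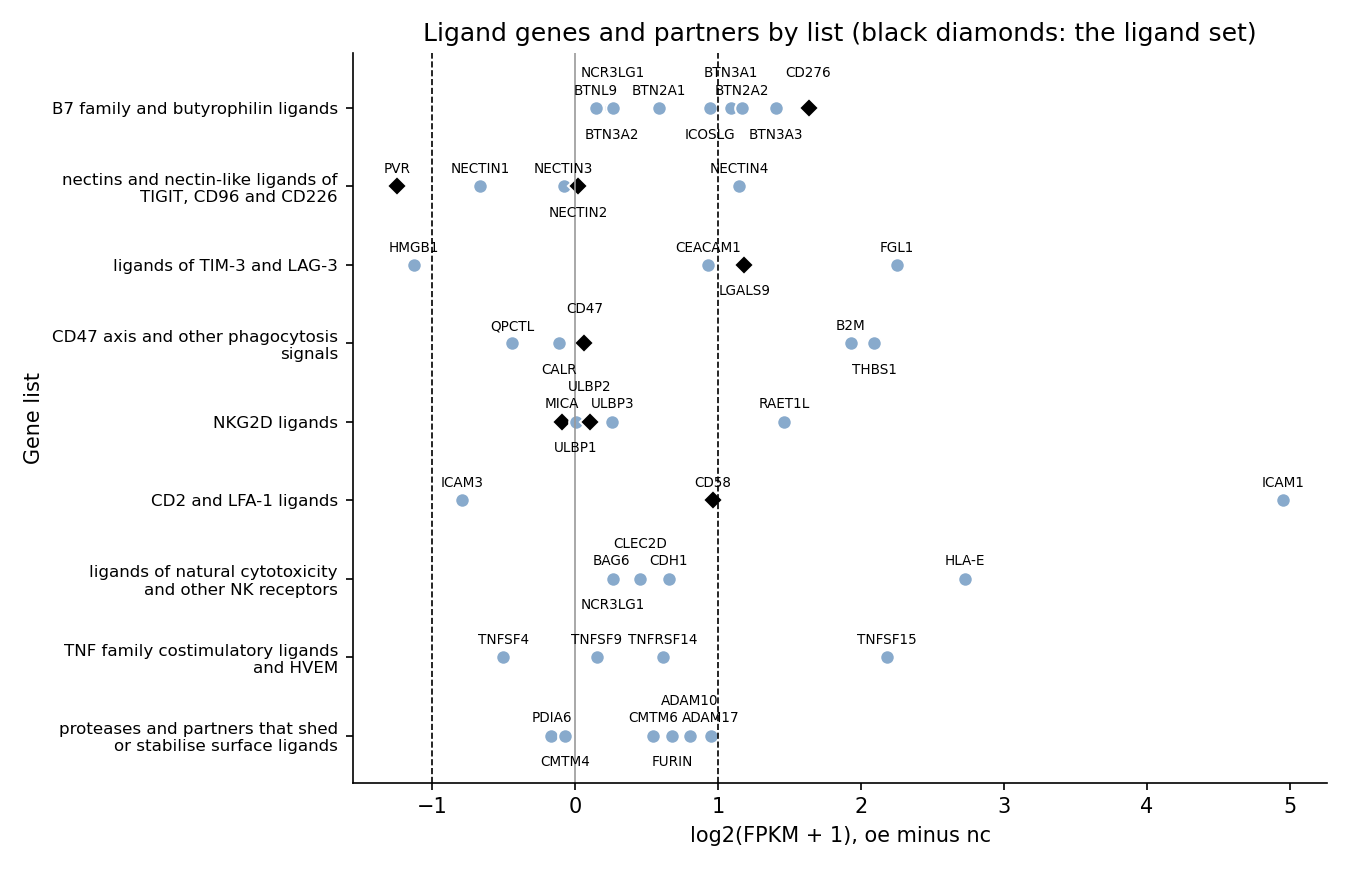
Log2 ratios, oe minus nc, of the genes counted in 8 lists of ligands and 1 list of proteases and partners, with 1 row per list, black diamonds for the ligand set, blue circles for other genes and dashed lines at 2-fold. ICAM1, at 4.95, and HLA-E, at 2.73, lie far to the right of CD58 and of the NKG2D ligands MICA and ULBP2.

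Of 8 NKG2D ligand genes, 5 were counted, and RAET1L alone was at least 2-fold higher, with 0 lower and a median log2 ratio of 0.10. ULBP1 measured 2.34 FPKM in nc and 2.35 FPKM in oe, and ULBP3 measured 0.678 FPKM in nc and 1.01 FPKM in oe. The 5 genes summed to 17.8 FPKM in nc and 19.6 FPKM in oe, most of it MICA. HLA-E, which engages the inhibitory receptor pair CD94 and NKG2A on NK cells, measured 11.8 FPKM in nc and 84.0 FPKM in oe, so its ratio to MICA was 1.03 in nc and 7.87 in oe. HLA-E was the 1 higher gene of 5 counted in the list of other NK receptor ligands, where 0 were lower and the median log2 ratio was 0.46. CDH1, E-cadherin, a ligand of KLRG1 and the most abundant of that list, measured 75.4 FPKM in nc and 119 FPKM in oe.

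ICAM1, the ligand of the integrin LFA-1, was the 1 higher gene of 3 counted in the list it shares with CD58, at 0.889 FPKM in nc and 57.6 FPKM in oe. ICAM1 stood at 0.279 times the level of CD58 in nc and at 8.03 times in oe. ICAM3 (6.53 FPKM in nc, 3.34 FPKM in oe) was lower by less than 2-fold. In the CD47 list of 8 genes, 5 were counted, 2 higher and 0 lower, with a median log2 ratio of 0.06. The higher genes were THBS1, a matrix protein that binds CD47 (25.8 FPKM in nc, 113 FPKM in oe), and B2M, the light chain of MHC class I and itself a phagocytosis signal (21.8 FPKM in nc, 85.7 FPKM in oe). CALR, a chaperone that can act as a signal for uptake at the surface, measured 447 FPKM in nc and 413 FPKM in oe. QPCTL, the enzyme that modifies CD47 for SIRPA binding, measured 4.46 FPKM in nc and 3.02 FPKM in oe.

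In the list of TNF family costimulatory ligands and HVEM, 4 of 9 genes were counted, with 1 higher, 0 lower and a median log2 ratio of 0.38. The higher gene was TNFSF15, a ligand of the TNF receptor family (0.736 FPKM in nc, 6.88 FPKM in oe). Of 10 proteases and partners that shed or stabilise surface ligands, 6 were counted and 0 passed 2-fold in either direction, with a median log2 ratio of 0.61. The sheddases ADAM10 and ADAM17, which can release MICA from the surface, both had log2 ratios under the 2-fold mark. ADAM10 measured 6.17 FPKM in nc and 11.5 FPKM in oe, and ADAM17 measured 3.92 FPKM in nc and 8.50 FPKM in oe. The ratio of ADAM17 was 2.17 in plain FPKM, past 2-fold, and its log2 ratio on the scale of FPKM + 1 was 0.95. PDIA6, a disulphide isomerase that takes part in MICA shedding and the most abundant of that list, measured 98.9 FPKM in nc and 88.04 FPKM in oe.

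The listed genes within 200 kb of the ligand genes differed among themselves. Around MICA, which lies in the MHC class I region, 5 genes were counted, of which 3 were at least 2-fold higher. HLA-B, 42.6 kb away, measured 18.5 FPKM in nc and 133 FPKM in oe, and HLA-C measured 38.2 FPKM in nc and 84.4 FPKM in oe. The cytokine gene TNF measured 0.191 FPKM in nc and 4.39 FPKM in oe. MICA itself was nearly level between these neighbours. Values of HLA-B, HLA-C and HLA-E are uncertain, as their sequences are close to those of other class I genes. Around PVR, 7 genes were counted, with 2 higher and 0 lower, so PVR was the only gene of that stretch that was at least 2-fold lower. BCL3, a regulator of NF-kappaB 84.1 kb from PVR, measured 3.64 FPKM in nc and 15.2 FPKM in oe. Around NECTIN2, 12 genes were counted, of which 3 were higher, 1 was lower (PVR) and 8 were under 2-fold, with a median log2 ratio of 0.17. BCL3 is among these 3 higher genes as well. Another is RELB, an NF-kappaB subunit 112 kb from NECTIN2, which measured 2.12 FPKM in nc and 10.6 FPKM in oe. The 1 gene counted around CD47, the 1 around CD276 and the 2 around CD58 were all under 2-fold. Around ULBP2, RAET1L was the 1 higher gene of 7. The window was chosen after the values were seen.

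**Figure D4:**
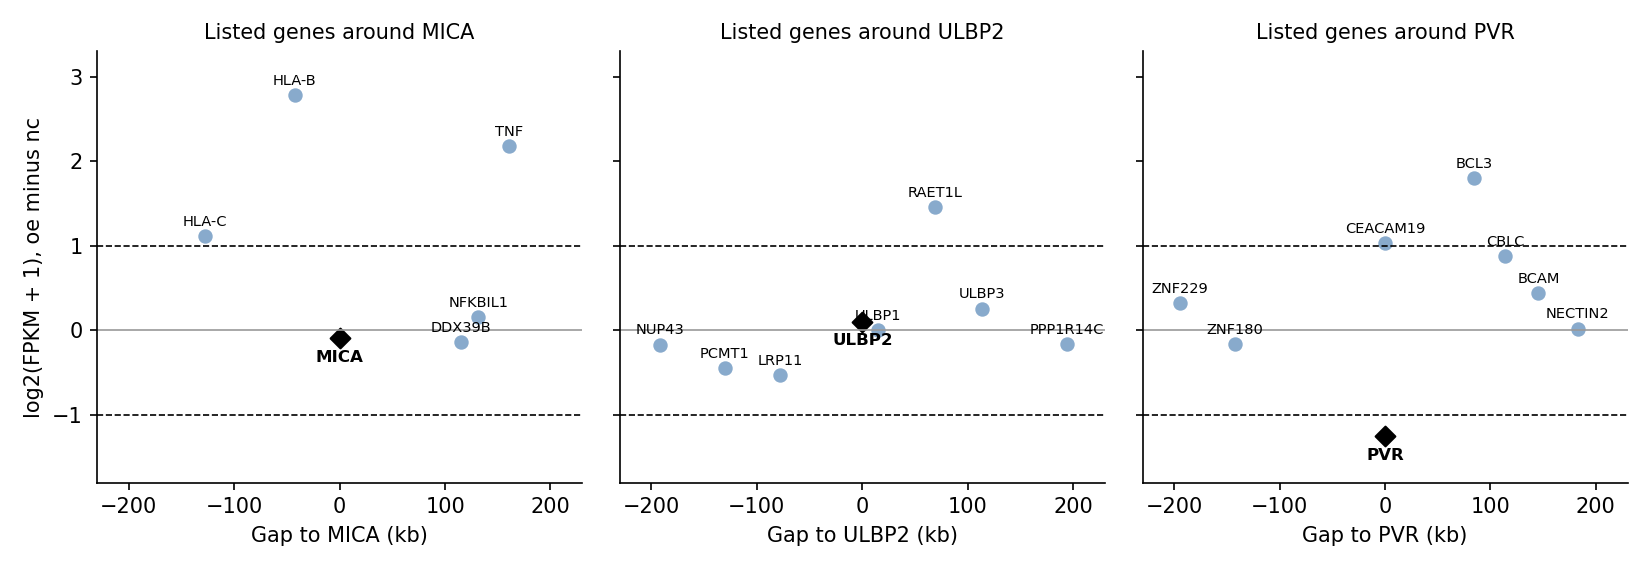
Log2 ratios, oe minus nc, of the counted genes within 200 kb of MICA, ULBP2 and PVR, against the gap to that gene in kb, with negative values towards the start of the chromosome, the ligand gene as a black diamond and dashed lines at 2-fold. MICA (-0.09) lies below HLA-B (2.78), TNF (2.18) and HLA-C (1.12), and PVR (-1.25) lies below all 7 neighbours.

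The libraries were checked against markers of LNCaP and of leukocytes. All 10 prostate epithelial markers were listed. KRT8 (39.2 FPKM in nc, 38.1 FPKM in oe) and EPCAM (44.9 FPKM in nc, 43.1 FPKM in oe) were nearly level, whereas KLK3 (358 FPKM in nc, 77.6 FPKM in oe) was among 5 markers at least 2-fold lower, with 1 marker at least 2-fold higher. The 3 markers with the largest differences, all lower in oe, were KLK2, SLC45A3 and TMPRSS2. KLK2, a kallikrein protease, measured 93.4 FPKM in nc and 12.7 FPKM in oe. SLC45A3, the membrane protein prostein, measured 67.96 FPKM in nc and 12.1 FPKM in oe. TMPRSS2, a membrane serine protease, measured 49.3 FPKM in nc and 9.22 FPKM in oe. Of 18 macrophage and leukocyte markers, 5 were listed, and PTPRC, CD14 and CSF1R were among the other 13, which were not analysed here. The 5 listed markers summed to 90.6 FPKM in nc and 127 FPKM in oe with none at 0. Most of both sums was LCP1 (89.9 FPKM in nc, 114 FPKM in oe), so the sums describe that gene and not the list. CD68 measured 0.632 FPKM in nc and 4.18 FPKM in oe. CTSS measured 0.0409 FPKM in nc and 5.87 FPKM in oe, and ITGAM measured 0.00787 FPKM in nc and 2.34 FPKM in oe. CD68, CTSS and ITGAM stood under 1 FPKM in nc and passed the minimum through oe alone, so they could not be counted as lower. CD276, LGALS9 and CD58 were higher in the same library as these markers, and the part of leukocyte RNA in their values was not tested. Of 10 T and NK lymphocyte markers, CD8A alone was listed (0.835 FPKM in nc, 0.598 FPKM in oe). Of 19 receptors of T cells, NK cells and phagocytes, 1 was counted, HCST, the signalling adaptor of NKG2D (1.30 FPKM in nc, 1.40 FPKM in oe).

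**Figure D5:**
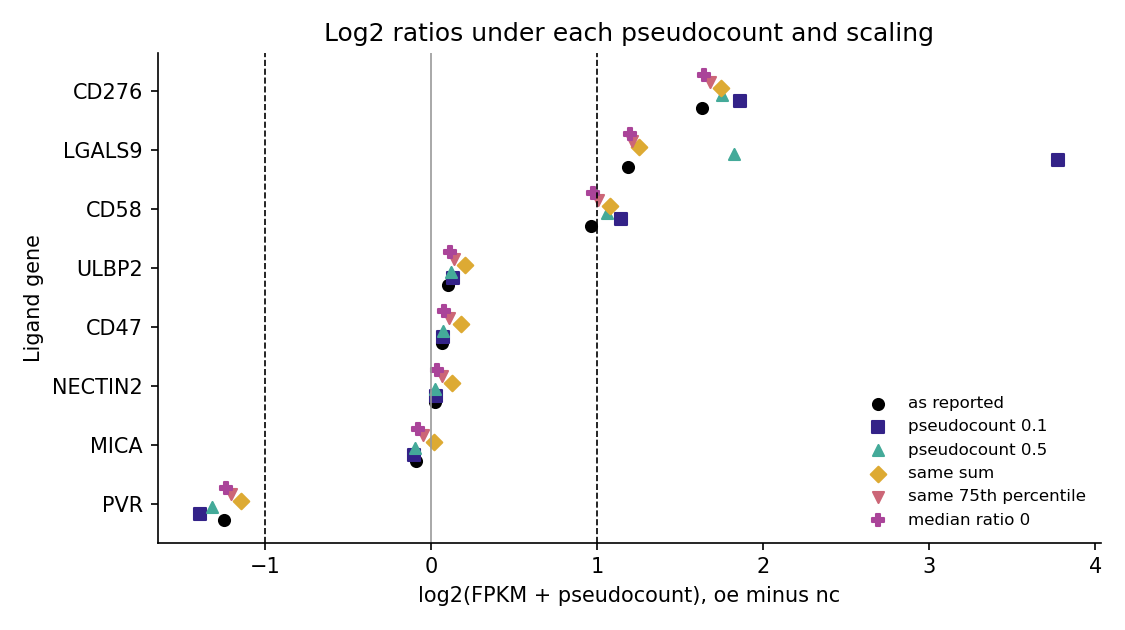
Log2 ratios, oe minus nc, of the 8 ligand genes as reported (black circles) and under each other pseudocount or library scaling, with dashed lines at 2-fold. CD276 stays above 1.6 and PVR below -1.1 in every setting plotted, CD58 lies from 0.96 to 1.15, and LGALS9, with 0 FPKM in nc, moves with the pseudocount.

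In the authors' deposited tables of genes that differed by at least 1.5-fold, 4 of the 8 listed ligand genes appear. Those tables hold 1776 higher and 1735 lower genes and rest on the same 2 libraries. With the 1.5-fold rule, 15.3% of all 11126 genes counted here were higher and 15.2% lower. CD276, LGALS9 and CD58 are in the authors' deposited table of higher genes, and PVR is in the authors' deposited table of lower genes. The authors' deposited table gives CD276 a fold change of 3.10, CD58 1.95 and PVR 0.421, each on the scale of FPKM + 1.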

How the data were processed

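Gene expression had been measured by RNA-seq in 2 LNCaP libraries, 1 per group, grouped by sample title. The protocols in the labels name kits for poly(A) capture, for removal of ribosomal RNA and for stranded libraries, made from 2 ug of total RNA. The authors deposited FPKM per gene, for which the submitters' processing notes name StringTie 2.1.0, with the aligner not stated in these sources. Those notes name mm10, whereas 11946 of 12075 identifiers carry the suffix of GENCODE annotation mapped to GRCh37. Gene coordinates are therefore printed as deposited, with GRCh37 inferred, and promoter coordinates are on GRCh38.p14. The smallest higher value of any listed gene was 0.50 FPKM.

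The authors' deposited tables of changed genes hold log2 fold changes and fold ratios, per the file headers. On all 1776 higher and 1735 lower genes the log2 values equalled the difference of log2(FPKM + 1) within 1e-06. Each deposited p-value and q-value was 1, and these were left aside. No test was possible, so differences were counted by size: a pseudocount of 1, a minimum of 1 FPKM in either library and 2-fold. The size rule was tested on simulated data. The simulated differences held no noise and were all past 2-fold, so this checked the code and not the spread between libraries. Alternatives were other pseudocounts, library scalings, filters and a 1.5-fold rule.

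The genes and lists were chosen with earlier results of these data known. Named genes were every member, up to 3 listed genes with the largest absolute log2 ratio past 2-fold and the most abundant gene of each list, and the 2 genes nearest in level to members past 2-fold and to the most abundant member. Genes near members, BTN3A1, NECTIN1, ICAM3, QPCTL, ADAM10, ADAM17, ULBP1, ULBP3, KRT8 and EPCAM were named after their values were seen. Close copies were found with blastn 2.17.0 among GENCODE 29 coding transcripts (at least 75% identity over at least 30% of the longest transcript). Tables were handled with pandas 2.3.3 in Python 3.11.15.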

Additional observations from a re-analysis of the deposited data

How the results depend on the processing

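The direction of CD276, LGALS9, PVR, NECTIN2, CD47, CD58 and ULBP2 held under all 5 other pseudocounts and scalings, and that of MICA turned in 1 of them, the scaling to the same sum. Of 40 values, 36 lay on the same side of 2-fold as reported, and the other 4 were those of CD58, which passed 2-fold with a pseudocount of 0.1 (1.15) or 0.5 (1.06) and with scaling to the same sum (1.07) or the same 75th percentile (1.01). The scaling to the same sum moved the median of all genes by 0.10 and that of the ligand genes to 0.19, and relative to that shift CD58 stayed under 2-fold. The count of ligand genes at least 2-fold higher was 2 as reported and without a filter on low values. It was 3 in the 4 settings in which CD58 passed and with the 1.5-fold rule, and 1 with a filter of 1 FPKM in both libraries or 5 FPKM in either, which remove LGALS9 by construction. The count of lower genes was 1, PVR, in every setting run. Of all genes, 10.1% were higher and 8.21% lower with a pseudocount of 0.1, and 8.15% and 6.95% with 0.5. The shares were 7.75% and 4.84% with the same sum, and 6.88% and 5.46% with the same 75th percentile. With the 1.5-fold rule they were 15.3% and 15.2%, beside 6.46% and 5.83% as reported. A filter of 1 FPKM in both libraries gave 4.54% and 5.20%, a filter of 5 FPKM in either gave 7.11% and 7.23%, and no filter 5.95% and 5.37%. No paired analysis was possible because each group holds 1 library. FPKM gives no read number, so the precision of low values such as LGALS9 is unknown.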
